A study of Mus musculus with 4 samples.

Results

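The cadherins described here are 8 genes, all but Cdh10 with known roles in kidney mesenchyme or nephron epithelium. They are Cdh1, Cdh2, Cdh3, Cdh4, Cdh6, Cdh10, Cdh11 and Cdh16. Each was taken with every probe set that the platform annotation assigns to that gene alone, which gave 17 of the 45101 probe sets on the array and 8 of the 18194 genes named there. A probe set is the group of short array probes that together report 1 transcript. The arrays compared whole kidneys at embryonic stage E14.5 (Theiler stage 22) from Wnt4 null embryos, which carried the Wnt4tm1Amc allele, with kidneys from wild-type embryos, on 2 Affymetrix Mouse430_2 arrays per genotype. Each mutant array held a pool of 12 kidneys with the strain given as 129, and each wild-type array a pool of 2 kidneys with the strain given as CD-1, while the shared protocol text speaks of CD-1 matings only. Genotype, stated strain and pool size cannot be told apart. Since nothing in the labels ties the pools of 1 genotype to different litters, the p-values reflect how far these pools spread, and that spread may be technical. In whole organs, fewer cells of a type and less RNA per cell cannot be told apart.

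Cadherins are calcium-dependent adhesion proteins that join like cells at adherens junctions. The classical ones reach through the membrane with a tail that binds p120 catenin and beta-catenin, and beta-catenin links through alpha-catenin to actin. When kidney mesenchyme turns into nephron epithelium, the set of cadherins that the cells carry changes: the mesenchyme is known for Cdh11 and Cdh2, the young nephron for Cdh4 and Cdh6, and the ureteric bud for Cdh1. Wnt4, a secreted signal of the condensing mesenchyme, is needed to form the renal vesicle, from which the nephron grows. The comparison asked which genes depend on that vesicle and its products.

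For 2 of the 8 cadherins, Cdh6 and Cdh10, a RefSeq promoter was at hand (build GRCm38.p6, chromosome 15), and they are shown because their signals went in opposite directions. The 250 bases before the start used by that promoter annotation are printed 5′ to 3′ on the strand of the gene. They lie at chr15:13173676-13173925 on the minus strand for Cdh6 and chr15:18820079-18820328 on the plus strand for Cdh10. Both windows fall inside the annotated genes, since Cdh6 reaches up to position 13176407 and Cdh10 begins at 18818869. They thus do not precede the outermost annotated start of either gene. Capitals mark the E-box CANNTG, the letters that basic helix-loop-helix factors such as Twist1 read. A match to this pattern on 1 strand is also a match on the other.
Cdh6: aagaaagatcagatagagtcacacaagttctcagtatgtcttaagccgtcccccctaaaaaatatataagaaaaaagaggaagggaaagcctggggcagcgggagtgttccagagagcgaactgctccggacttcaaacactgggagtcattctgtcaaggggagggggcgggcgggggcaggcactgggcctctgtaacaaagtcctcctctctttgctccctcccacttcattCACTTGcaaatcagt
Cdh10: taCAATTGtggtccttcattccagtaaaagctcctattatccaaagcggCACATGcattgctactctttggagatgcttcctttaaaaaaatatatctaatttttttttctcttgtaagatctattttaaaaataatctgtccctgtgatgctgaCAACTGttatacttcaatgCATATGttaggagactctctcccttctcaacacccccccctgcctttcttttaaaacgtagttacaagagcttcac
The Cdh6 window held 1 E-box, close to the start, and the Cdh10 window held 4, spread over its length. Of all 32851 promoter windows of this length in the table, 66.2% held at least 1. The form read by Snail and Zeb factors, CAGGTG or CACCTG, which is a special case of the E-box, was in neither window and in 17.2% of all windows. The GC box GGGCGG or CCGCCC was found 2 times in the Cdh6 window, in overlapping copies, and not in the Cdh10 window, against 32.7% of all windows with at least 1. These are matches of letters and say nothing of binding.

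Signals were compared as log2(signal + 16), mutant minus wild type, with limma's moderated test over 27022 probe sets above a floor of intensity, and p-values were adjusted over all of them (Benjamini-Hochberg, threshold 0.05). Fold differences are on this scale, which understates the change of dim genes. As a check of the labels, Wnt4 itself read 406 and 272 on the mutant arrays, against 1885 and 1769.9 on the wild-type arrays, and fell 5.28-fold (adjusted p = 0.000196). Its dimmer probe set gave 255 and 213 in mutant kidneys, against 1125 and 846 in wild-type kidneys. Where the Wnt4 probe sets lie with respect to the disruption was not analysed here. The correlation of log2 signals over tested probe sets was 0.980 between the mutant arrays, 0.974 between the wild-type arrays and 0.943 to 0.947 between genotypes, and no array stood apart. The signal ratio of 3′ to 5′ control probe sets, a sign of RNA length, was 5.67 and 6.43 in mutant kidneys, against 4.71 and 5.1 in wild-type kidneys for the transferrin receptor, without overlap, while the Gapdh and actin ratios overlapped. The part of RNA length in the results below was not tested.

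The cadherins split by direction. At the brightest tested probe set of each gene, Cdh4 and Cdh6 fell, Cdh2, Cdh11 and Cdh10 rose, and Cdh1, Cdh16 and Cdh3 did not pass the threshold. Thus 5 of 8 passed, while 12.5% of all 13432 tested genes did, 5.82% lower and 6.7% higher. Of the 5, Cdh10 came above the floor of intensity only through its level in the mutant. The 8 genes were chosen with earlier results of these data known, so their share is a description and not a test. Among the 15 tested probe sets of these genes, 4 were lower and 4 higher, against 5.39% and 5.41% of all tested probe sets. The median log2 difference over the 8 genes was -0.10, and 0.00 over all tested genes. Groups did not overlap for 7 of the 8 genes, all but Cdh3, and for 12 of the 15 probe sets, which is to be read against 54.1% of all tested probe sets.

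**Figure D1:**
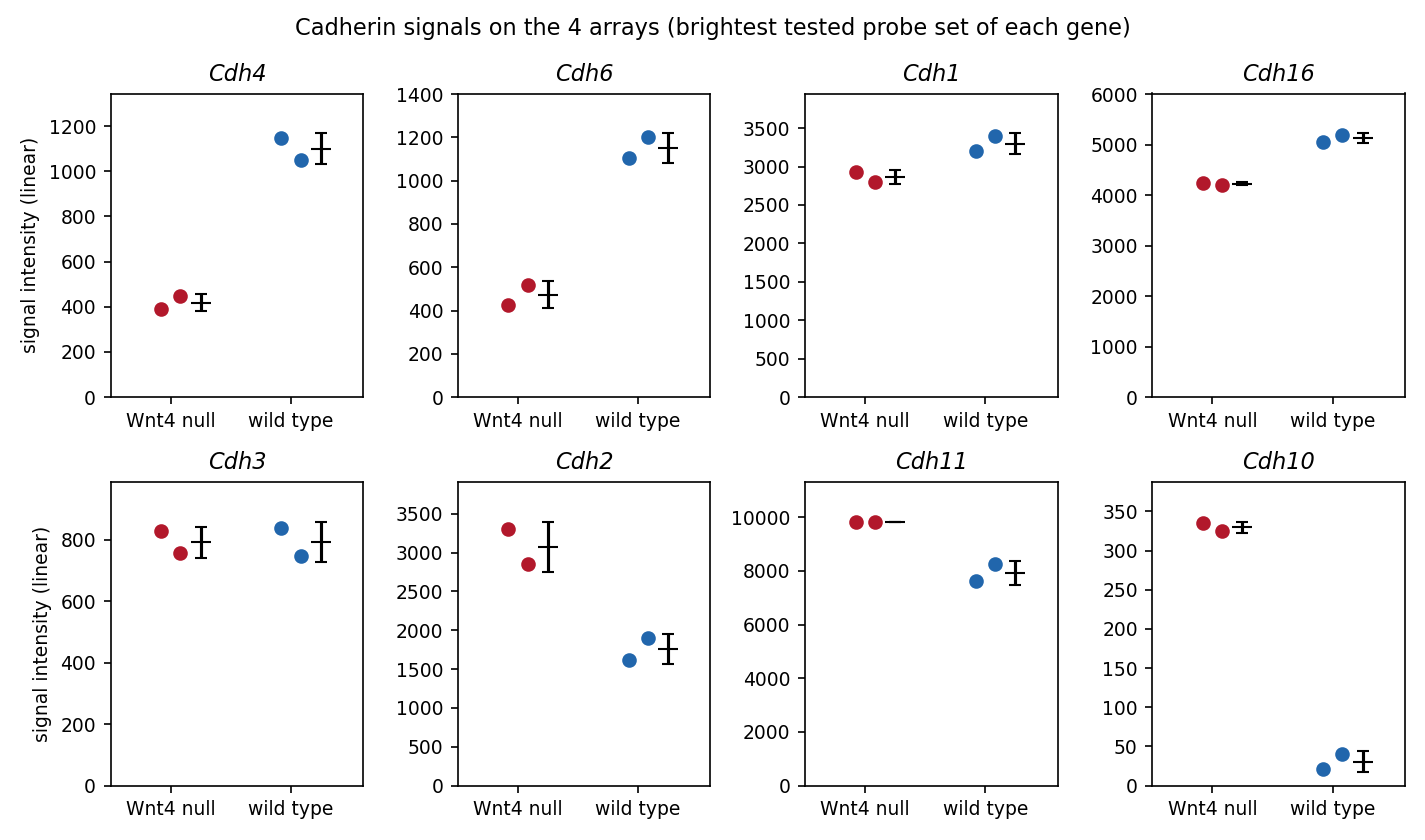
Deposited signal intensity (linear vertical axis from 0) of each cadherin at its brightest tested probe set, with a point per array, Wnt4 null kidneys in red on the left and wild-type kidneys in blue on the right; the black marks are the mean and SD of 2 arrays. Cdh4 and Cdh6 lie lower in the mutant, Cdh2, Cdh11 and Cdh10 higher, and the points of Cdh3 overlap.

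Cdh4 and Cdh6, both known from the young nephron, were lower in the mutant. Cdh4, or R-cadherin, is a classical type I cadherin made as the mesenchyme aggregates and epithelium forms. Its brightest probe set read 391 and 446 in mutant kidneys, against 1149 and 1052 in wild-type kidneys. Both mutant arrays lay well below both wild-type arrays. The level was 2.57-fold lower, a log2 difference of -1.36 ± 0.13 (SE; limma adjusted p = 0.000626). The second tested probe set for Cdh4 gave 90.8 and 135 in mutant kidneys, against 372 and 420.3 in wild-type kidneys, with a log2 difference of -1.70 ± 0.25 (adjusted p = 0.00435). A further probe set was too dim to be tested, and its values overlap, at 3.83 and 7.45 in mutant kidneys and 6.16 and 6.92 in wild-type kidneys.

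Cdh6, or K-cadherin, a type II cadherin known from the renal vesicle and the early proximal tubule, fell as well. It read 428 and 517 in mutant kidneys, against 1103 and 1199.7 in wild-type kidneys, without overlap. The level was 2.4-fold lower, with a log2 difference of -1.26 ± 0.14 (SE; adjusted p = 0.0011). The second probe set read 333 and 437 in mutant kidneys, against 1028 and 1266 in wild-type kidneys, and was 2.91-fold lower (log2 difference -1.54 ± 0.17, adjusted p = 0.00118). Both genes thus kept a signal in the mutant. Cdh4 averaged 418 ± 38.6 in mutant and 1101 ± 68.6 in wild-type kidneys, and Cdh6 averaged 472 ± 62.7 in mutant and 1151 ± 68.4 in wild-type kidneys (SD, n = 2 each). The 95% interval of the fold ran from 0.314 to 0.48 of wild type for Cdh4 and from 0.335 to 0.519 for Cdh6. These calls held in all 15 alternative ways of processing the values.

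Other genes of the structures that need Wnt4 lay lower on the same arrays. The marker lists were chosen with earlier results of these data known, and 5.82% of all tested genes were lower and 6.7% higher. All 10 tested early nephron markers, Wnt4 among them, were lower, with a median log2 difference of -2.18, and their summed signal was 8202 and 7661 in mutant kidneys, against 19274 and 20187 in wild-type kidneys. Of 10 proximal tubule markers 8 were lower and 0 higher (median -2.35), of 6 loop and distal tubule markers 5 were lower and 0 higher (median -1.92), and of 6 podocyte markers 5 were lower and 0 higher (median -1.48). The proximal count was 5 with the gene mean and 4 with the 60% filter, where the podocyte count was 3, still with 0 higher. Genes left untested in those settings were not counted there, so a smaller count need not mean lost calls. The mutant means of Slc34a1 (50.1), Cubn (22.2), Lrp2 (85.8) and the early nephron marker Osr2 (13.8) lay below 94.2, the lowest mean level fitted. These genes entered the fit only through their wild-type level and could only come out lower, which limits the proximal and early nephron counts and medians. Among the named ones, Pdzk1, a scaffold of the proximal tubule brush border, read 191 and 186 in mutant kidneys, against 2042 and 2178 in wild-type kidneys. The apical podocyte protein gene Podxl read 643 and 730.4 in mutant kidneys, against 2658 and 2865 in wild-type kidneys. The part of these structures in the Cdh4 and Cdh6 values was not tested.

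The cadherins shared with the ureteric bud and its derivatives differed by less, and neither passed the threshold. Cdh1, which encodes E-cadherin, the type I cadherin of the ureteric bud and of distal nephron epithelium, read 2923 and 2794 in mutant kidneys, against 3202 and 3395 in wild-type kidneys. The mutant arrays were both below the wild-type arrays, but the log2 difference of -0.21 ± 0.09 (SE) did not pass (adjusted p = 0.176). Its 95% interval ran from -0.40 to -0.01, that is from 0.757 to 0.994 of the wild-type level. Cdh16, or Ksp-cadherin, a kidney cadherin of tubules and collecting ducts with a short tail that lacks the catenin-binding part, read 4246 and 4207 in mutant kidneys, against 5061 and 5201 in wild-type kidneys. Its log2 difference was -0.28 ± 0.08 (SE; adjusted p = 0.0583), with an interval from -0.46 to -0.10, or 0.728 to 0.933 of wild type. It lay close to the threshold and passed under 2 of the 15 alternatives. These were a filter on the lowest 60% of probe sets (adjusted p = 0.046) and the gene mean, which averages the probe sets of each gene (adjusted p = 0.0403). Cdh16 has only 1 probe set, so its log2 difference stayed at -0.28 in both. The intervals of Cdh1 and Cdh16 lay wholly above those of Cdh4 and Cdh6, whose upper ends were -1.06 and -0.95, though the difference between genes was not itself tested.

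Cdh3, or P-cadherin, a type I cadherin of epithelia, did not differ detectably between the genotypes. It read 827 and 756 in mutant kidneys and 839.8 and 747 in wild-type kidneys, so the groups overlapped fully. The 95% interval of the log2 difference ran from -0.29 to 0.29 (adjusted p = 0.996), which bounds a change at 0.818 to 1.22 of wild type. A dimmer probe set read 126 and 106 in mutant kidneys and 115 and 79.5 in wild-type kidneys and did not pass either (adjusted p = 0.713).

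Of 13 tested ureteric bud markers 3 were lower (Calb1, Emx2 and Upk3a) and 3 higher (Krt18, Krt8 and Mia), beside 5.82% and 6.7% of all tested genes. The median log2 difference of the markers was -0.11. The higher count was 0 without mutant replicate 1 and with no intensity trend, and 1 without mutant replicate 2, with arrays centred on their medians and with no filter. The Upk3a call ended on leaving out mutant replicate 1 (adjusted p = 0.109) or wild-type replicate 1 (0.0621), and the Calb1 call with the gene mean (0.115). Their summed signal was 17501 and 16653 in mutant kidneys, against 19335 and 18234 in wild-type kidneys. Its part in the Cdh1 and Cdh16 values was not tested.

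**Figure D2:**
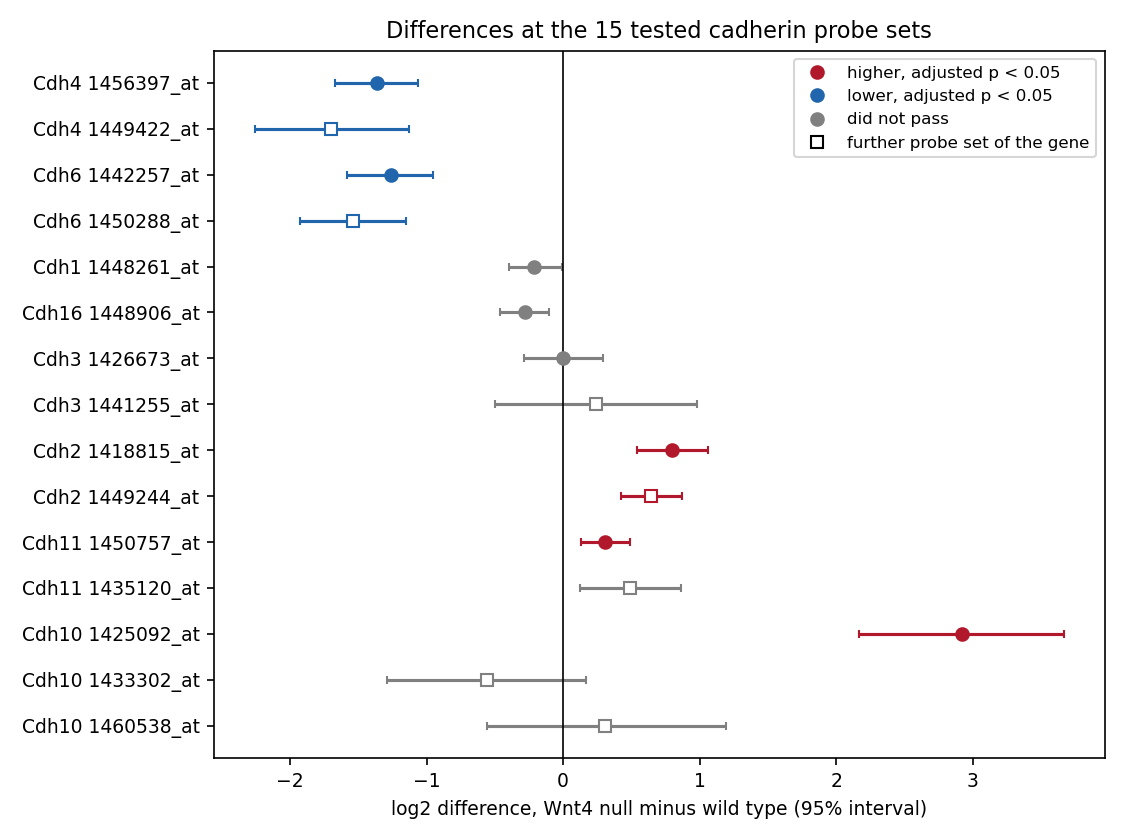
Log2 difference, Wnt4 null minus wild type (horizontal axis), with its 95% interval at the 15 tested probe sets of the 8 cadherins; filled circles are the brightest probe set of a gene, open squares its further probe sets, and colour gives the call. The probe sets of Cdh4, Cdh6 and Cdh2 lie on 1 side for each gene, whereas 1 of the 3 for Cdh10 stands apart from the others at 2.92.

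The mesenchymal cadherins were higher in the mutant. Cdh2 encodes N-cadherin, a type I cadherin of mesenchyme, muscle and nerve that is also made by the young nephron. It read 3304 and 2850.0 in mutant kidneys, against 1623 and 1899.9 in wild-type kidneys, with both mutant arrays above both wild-type arrays. The level was 1.74-fold higher, with a log2 difference of 0.80 ± 0.11 (SE; adjusted p = 0.00401). Its second probe set, drawn from the same transcript sequence, read 1729 and 1862 in mutant kidneys, against 1116 and 1169 in wild-type kidneys (1.56-fold higher, adjusted p = 0.00574). With a variance prior that has no intensity trend both calls were lost (adjusted p = 0.0775 and 0.0761), and that of the dimmer probe set also without mutant replicate 2 (0.0534).

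Cdh11, or OB-cadherin, a type II cadherin of loose mesenchyme, rose by less. It read 9829 and 9806 in mutant kidneys, against 7609.7 and 8248 in wild-type kidneys. The groups did not overlap, and the level was 1.24-fold higher (log2 difference 0.31 ± 0.08, SE; adjusted p = 0.0442). The dimmer probe set read 1326 and 999.5 in mutant kidneys, against 899 and 742 in wild-type kidneys, a 1.4-fold higher level that did not pass (adjusted p = 0.0954). The Cdh11 call is marginal: it held in 8 of 15 alternatives and was lost without wild-type replicate 1 (adjusted p = 0.0931), without mutant replicate 1 (0.227) and without mutant replicate 2 (0.212), though its log2 difference stayed between 0.25 and 0.42 in all of them.

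Cdh10, a type II cadherin best known from the brain, had the highest fold of the 8, at 1 of its 4 probe sets. That probe set, 1425092_at, read 335 and 325 in mutant kidneys, against 21.3 and 40.3 in wild-type kidneys. The level was 7.55-fold higher, with a log2 difference of 2.92 ± 0.33 (SE; adjusted p = 0.00125). The wild-type signals lay below 94.2, the lowest mean level that entered the fit, so the size depends on the added constant: the log2 difference was 3.45 with a constant of 1 and 2.06 with 64. Probe set 1433302_at went the other way, with 70.4 and 102 in mutant kidneys against 126 and 139.7 in wild-type kidneys (log2 difference -0.56 ± 0.32, adjusted p = 0.318). Probe set 1460538_at, designed on the same sequence record as 1433302_at, gave 100.4 and 141 in mutant kidneys and 64.5 and 130.4 in wild-type kidneys, which overlap (adjusted p = 0.672). The fourth, 1446399_at, was too dim for the fit, at 36.9 and 84.3 in mutant kidneys and 12.2 and 11.2 in wild-type kidneys. The 3 tested probe sets had nearly the same mean log2 signal, 6.98, 6.94 and 6.92, so the rule of taking the brightest decided the Cdh10 call. Whether these probe sets read different transcripts of the gene was not analysed here.

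Stroma and skeletal muscle markers lay higher on the same arrays. The counts of this paragraph are to be read against 6.7% higher and 5.82% lower among all tested genes. Of 14 stroma markers 10 were higher and 0 lower (median log2 difference 0.85), with a summed signal of 78927 and 77766 in mutant kidneys, against 50377 and 47178 in wild-type kidneys. Foxd1, the forkhead factor of the cortical stroma, read 6938 and 6715 in mutant kidneys, against 2028 and 2393 in wild-type kidneys. Of 10 tested skeletal muscle markers 7 were higher and 0 lower (median 1.59), with a summed signal of 8794 and 8701 in mutant kidneys, against 2817 and 1784 in wild-type kidneys. The muscle count was 4 with no intensity trend. Myog, the muscle factor myogenin, read 903 and 754 in mutant kidneys, against 126 and 40.3 in wild-type kidneys. The wild-type means of Myog (83.2) and of the muscle marker Myl1 (73.1) lay below 94.2, the lowest mean level that entered the fit. Both genes entered only through their level in the mutant and could only come out higher, which limits the muscle count and median. Cdh15, the cadherin of skeletal muscle, gave 421 and 439 in mutant kidneys, against 275 and 288 in wild-type kidneys, a log2 difference of 0.58 that did not pass (adjusted p = 0.06). Of 6 tested neural and Schwann cell markers 1, Fabp7, was lower and 0 higher (median -0.28), with a summed signal of 1128 and 1187 in mutant kidneys, against 1442 and 1194 in wild-type kidneys. The mutant mean of Fabp7, 90.7, lay below 94.2, so this gene entered the fit only through its wild-type level. Leaving out any of the 4 arrays ended the Fabp7 call, at an adjusted p between 0.101 and 0.128, which makes the lower count 0. The Schwann cell cadherin Cdh19 was too dim to be tested, at 8.86 and 1.99 in mutant kidneys and 9.9 and 4.3 in wild-type kidneys. The part of these cells in the values of Cdh2, Cdh11 and Cdh10 was not tested. Of 10 nephron progenitor markers 3 were lower (Cited1, Itga8 and Tmem100) and 1 higher (Crym), with a median of -0.02. Leaving out mutant replicate 1 ended the calls of Crym (adjusted p = 0.125) and Itga8 (0.208), leaving out mutant replicate 2 that of Crym (0.0596), and with no intensity trend none of the 4 passed.

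Cdh9 and Cdhr5 were the other cadherins that passed. Of 18 other cadherin genes on the array, 11 could be tested, and 1 was lower and 1 higher (median log2 difference -0.09), beside the 12.5% of all tested genes that passed in either direction. Cdh9, a type II cadherin close in sequence to Cdh6 and Cdh10, read 207 and 242 in mutant kidneys, against 42.3 and 54.2 in wild-type kidneys (3.74-fold higher, adjusted p = 0.00679). As for Cdh10, its wild-type signals lay below 94.2, so it entered the fit only through its level in the mutant, and the size of the fold depends on the added constant. Cdhr4, a cadherin-related gene, read 253 and 167 in mutant kidneys, against 101 and 38.2 in wild-type kidneys, whose mean of 69.5 lay below 94.2 as well. It did not pass at a log2 difference of 1.48 (adjusted p = 0.0592), but did without wild-type replicate 1 (0.00552), with arrays centred on their medians (0.00358) and with the replicate block (0.0189), which made the higher count 2. Cdhr5, a cadherin of the brush border, read 141 and 153 in mutant kidneys, against 340.4 and 325 in wild-type kidneys (2.14-fold lower, adjusted p = 0.0133). Its brush border partner Cdhr2 was too dim to be tested, with 10.2 and 22.3 in mutant kidneys against 67.1 and 127 in wild-type kidneys. Cdh5, the endothelial cadherin, read 773 and 829 in mutant kidneys, against 852 and 855 in wild-type kidneys, and did not pass (adjusted p = 0.689), while 4 of 9 endothelial markers, Plvap, Cldn5, Emcn and Eng, were lower. That count was 2 without either mutant replicate and with arrays centred on their medians, and 1 with no intensity trend. Emcn and Eng gave adjusted p = 0.202 and 0.136 without mutant replicate 1.

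Of 16 tested protocadherins, Fat, Dchs, Celsr and calsyntenin genes, 5 were higher (Fat4, Pcdh8, Pcdh19, Pcdh18 and Clstn2) and 2 lower (Celsr1 and Celsr2), with a median log2 difference of 0.41. Of all tested genes 6.7% were higher and 5.82% lower. The lower count was 1 without either mutant replicate, and with no intensity trend it was 0 and the higher count 2. The higher count was also 2 when the probe sets marked as less specific (_s_at and _x_at) were left out. The probe sets that show Fat4, Pcdh8 and Clstn2 are of that kind, so these genes were not counted there. Other probe sets of Fat4 (adjusted p = 0.000194) and Pcdh8 (0.00321) were higher in the main fit, and that of Clstn2 did not pass (0.0897). Fat4, a giant cadherin that stromal cells use to signal to nephron progenitors through Dchs1, read 2929 and 2949 in mutant kidneys, against 646 and 959 in wild-type kidneys. It was 3.68-fold higher (adjusted p = 0.000418), and its second probe set passed in the same direction. Dchs1 gave a log2 difference of 0.47 (adjusted p = 0.189). Pcdh8 was 2.41-fold and Pcdh19 2.01-fold higher, each with at least 1 further probe set that passed. Pcdh18 was 1.65-fold higher, and its 2 further probe sets did not pass. With no intensity trend neither Pcdh19 (adjusted p = 0.0524) nor Pcdh18 (0.0773) passed. Celsr1, a planar polarity cadherin of epithelia, read 391 and 304 in mutant kidneys, against 840.5 and 654 in wild-type kidneys (2.1-fold lower, adjusted p = 0.00934).

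The inner partners of the cadherins passed at a share near that of all genes. Of 22 tested catenin and adherens junction genes 2 were lower, 0 higher and 20 did not pass, with a median log2 difference of 0.03, beside 12.5% of all tested genes that passed. Ctnnb1, which encodes beta-catenin, read 12194 and 12448 in mutant kidneys and 11681 and 12336 in wild-type kidneys, with a 95% interval of 0.909 to 1.16 of wild type (adjusted p = 0.814). Ctnna1, for alpha-catenin, read 8441 and 8176 in mutant kidneys and 7750.3 and 8746 in wild-type kidneys (interval 0.879 to 1.16). Ctnnd1, for p120 catenin, had an interval of 0.932 to 1.38 and did not pass (adjusted p = 0.417). The 2 lower genes were Nectin2, an adhesion protein of the junction (1.52-fold, adjusted p = 0.0131), and the scaffold gene Iqgap1 (1.38-fold, adjusted p = 0.0142). Neither passed in the absence of mutant replicate 2 (adjusted p of 0.0817 for Nectin2 and 0.0742 for Iqgap1), nor Iqgap1 in that of mutant replicate 1 (0.0936). Both further bright probe sets of Iqgap1 were lower too, with log2 differences of -0.55 (adjusted p = 0.0159) and -0.63 (0.0113). Averaged with its dim probe sets, Iqgap1 came to -0.13 (0.633). The other probe set of Nectin2 was bright as well, at 1047 and 1044 in mutant kidneys and 1099.6 and 1059.8 in wild-type kidneys. It did not pass (log2 difference -0.05, adjusted p = 0.835), and the gene mean of Nectin2 came to -0.33 (0.0696). Ctnnal1, which encodes a relative of alpha-catenin, gave a log2 difference of -0.70 that did not pass (adjusted p = 0.0555), though it passed in 6 of the 15 alternatives, at 0.0169 without mutant replicate 1 and 0.0232 with the gene mean among them. In the desmosome list 2 of 8 genes were lower and 0 higher, beside 5.82% and 6.7% of all tested genes. Dsc2, for desmocollin, did not pass at its brighter probe set (log2 difference 0.63, adjusted p = 0.219), but was higher at its second (0.94, 0.0481) and with the gene mean (0.78, 0.0425), where the list had 1 gene lower and 1 higher. Dsp, for desmoplakin, was 1.43-fold lower and Pkp2, for plakophilin, 1.65-fold lower (adjusted p = 0.0385 and 0.027). With no filter, and with no intensity trend, the lower count was 0. Further probe sets of Dsp had log2 differences of -0.60 (adjusted p = 0.11) and -0.52 (0.0864) and did not pass. The Dsp call was lost without wild-type replicate 2 (adjusted p = 0.0606) and without mutant replicate 2 (0.231), and the Pkp2 call on leaving out mutant replicate 1 (0.113), mutant replicate 2 (0.0833) or wild-type replicate 1 (0.0608). The average over its probe sets gave Pkp2 a log2 difference of -0.17 (adjusted p = 0.683). That average takes in a probe set too dim to be tested, which went the other way (0.86). The second bright probe set of Pkp2 read 278 and 307 in mutant kidneys, against 442 and 429 in wild-type kidneys. It did not pass (log2 difference -0.55, adjusted p = 0.0729), nor did a dimmer one (-0.27, 0.682).

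Factors known to set cadherin expression were uneven. For comparison, 6.7% of all tested genes were higher and 5.82% lower. Of 10 tested mesenchymal regulators 3 were higher and 0 lower, with a median log2 difference of 0.44. Prrx1, a homeobox gene of mesenchyme, read 1085 and 1280.2 in mutant kidneys, against 339 and 322 in wild-type kidneys (3.45-fold higher, adjusted p = 0.00024). Twist2 was 2.56-fold higher, at 1049.8 and 981 in mutant kidneys against 390.4 and 382 in wild-type kidneys, and Twist1 2.32-fold higher, at 737 and 626 in mutant kidneys against 279 and 288 in wild-type kidneys. Among the Snail and Zeb genes, which like Twist1 are known repressors of Cdh1, Snai1 had a log2 difference of 0.39 (adjusted p = 0.403), Snai2 one of 0.03 (0.912), Zeb1 one of 0.49 (0.0654) and Zeb2 one of 0.29 (0.131). None of these 4 passed. Without wild-type replicate 1 the log2 difference of Zeb1 was 0.68. Of 14 tested epithelial regulators 2 were lower (Lhx1 and Pax8) and 2 higher (Klf4 and Klf5). The homeobox factor gene Lhx1 was 5.92-fold and the paired box gene Pax8 2.92-fold lower, and both are genes of the renal vesicle. Klf4 read 1526 and 1457 in mutant kidneys, against 447 and 416 in wild-type kidneys, a 3.37-fold higher level (adjusted p = 0.000112). Klf5 was 1.63-fold higher, which failed to pass with no intensity trend (adjusted p = 0.0651) and was not seen in the mean over its probe sets (log2 difference -0.00, adjusted p = 0.991).

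Among 14 tested genes that process or modify cadherins, 3 were higher and 0 lower, beside 6.7% and 5.82% of all tested genes. The median log2 difference of the list was -0.08. With the gene mean 1 was higher and 1 lower. A dimmer probe set of Ptprf was lower (log2 difference -0.65, adjusted p = 0.00487), while its brightest was not (-0.01, 0.949). The Src gene, for a kinase that acts on cadherin complexes, read 928 and 859.8 in mutant kidneys, against 522 and 345 in wild-type kidneys (2.06-fold higher, adjusted p = 0.012). It missed the threshold with no intensity trend (adjusted p = 0.0954), where none of the 3 passed. Pcsk5, a proprotein convertase, was 1.68-fold higher (adjusted p = 0.018), a call lost without mutant replicate 2 (0.131). Ptprk, a receptor phosphatase, was 1.5-fold higher (adjusted p = 0.0231), a call lost without mutant replicate 1 (0.0928) or 2 (0.124), and its mean over all probe sets gave a log2 difference of -0.01 (adjusted p = 0.977). Adam10, the main sheddase of E- and N-cadherin, gave a log2 difference of 0.23 (adjusted p = 0.437).

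**Figure D3:**
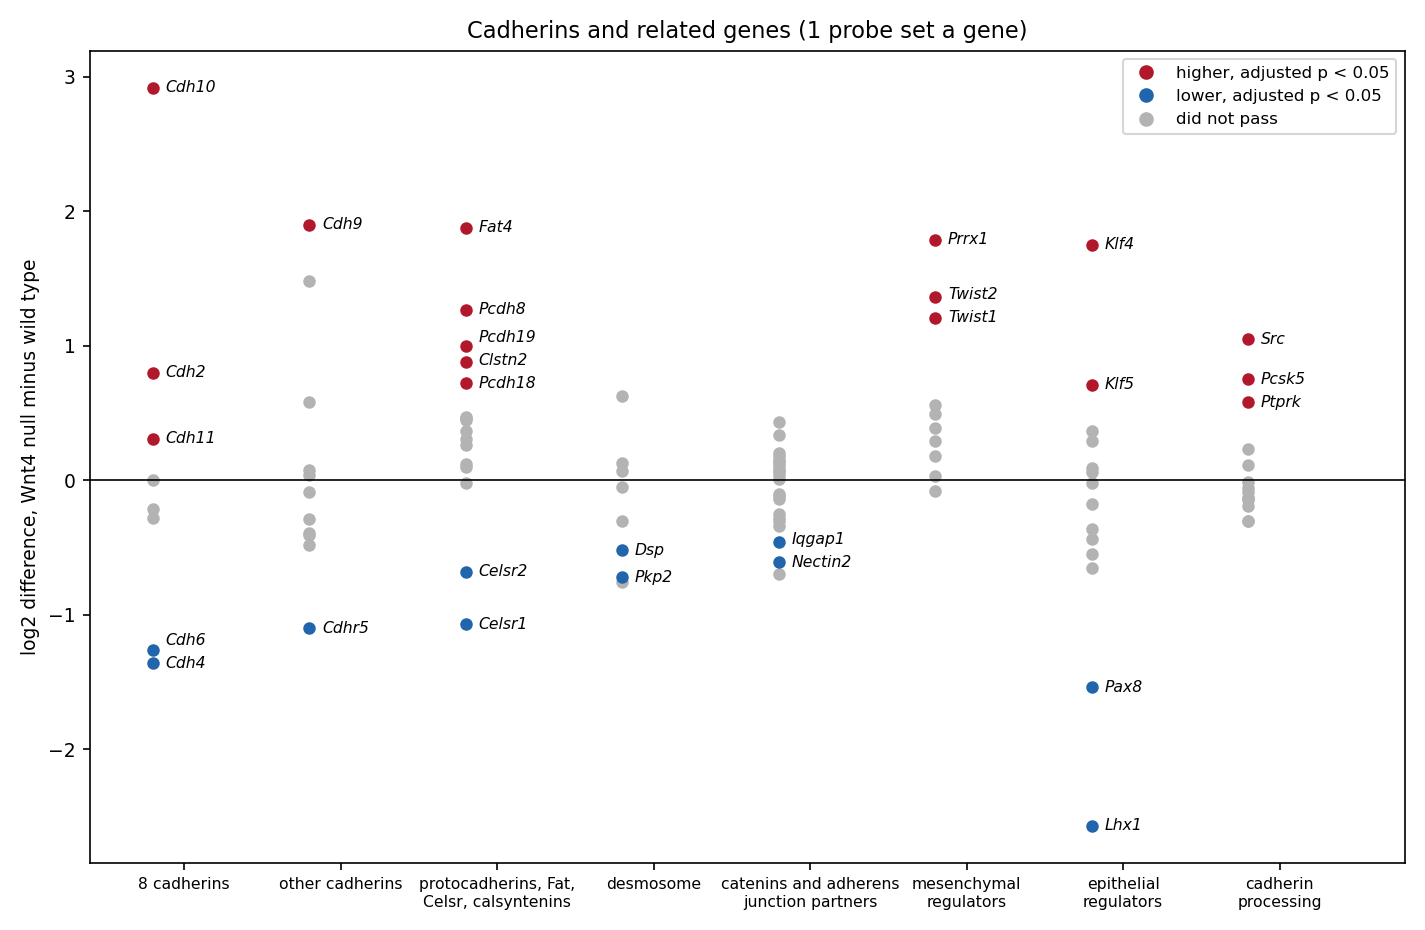
Log2 difference, Wnt4 null minus wild type (vertical axis), for every tested gene of the 8 cadherins and 7 related lists, with 1 probe set a gene; red points were higher and blue points lower past the threshold and are named, and grey points did not pass. Catenins and their partners have a median of 0.03 and reach down to -0.70, with 20 of 22 not past the threshold.

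The profiles most like those of the 5 cadherins that passed were found by the Euclidean distance between gene-centred log2 values over the 4 arrays, cadherins left out. For Cdh6 they were Lmo7 (distance 0.0384) and Papss2 (0.0506), and for Cdh4 Sh3bgrl2 (0.0912) and Tex9 (0.0916), which were 2.34-fold, 2.36-fold, 2.53-fold and 2.51-fold lower in the mutant. For Cdh2 they were Bmf (0.0469) and Nnat (0.0595), which were 1.78-fold and 1.79-fold higher. For Cdh11 they were Nkain1 (0.0166) and Armcx1 (0.0174), neither of which passed the threshold. For Cdh10 they were Tex15 (0.323) and Hbb-bh1 (0.372). With 4 arrays, such closeness describes these arrays only.

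**Figure D4:**
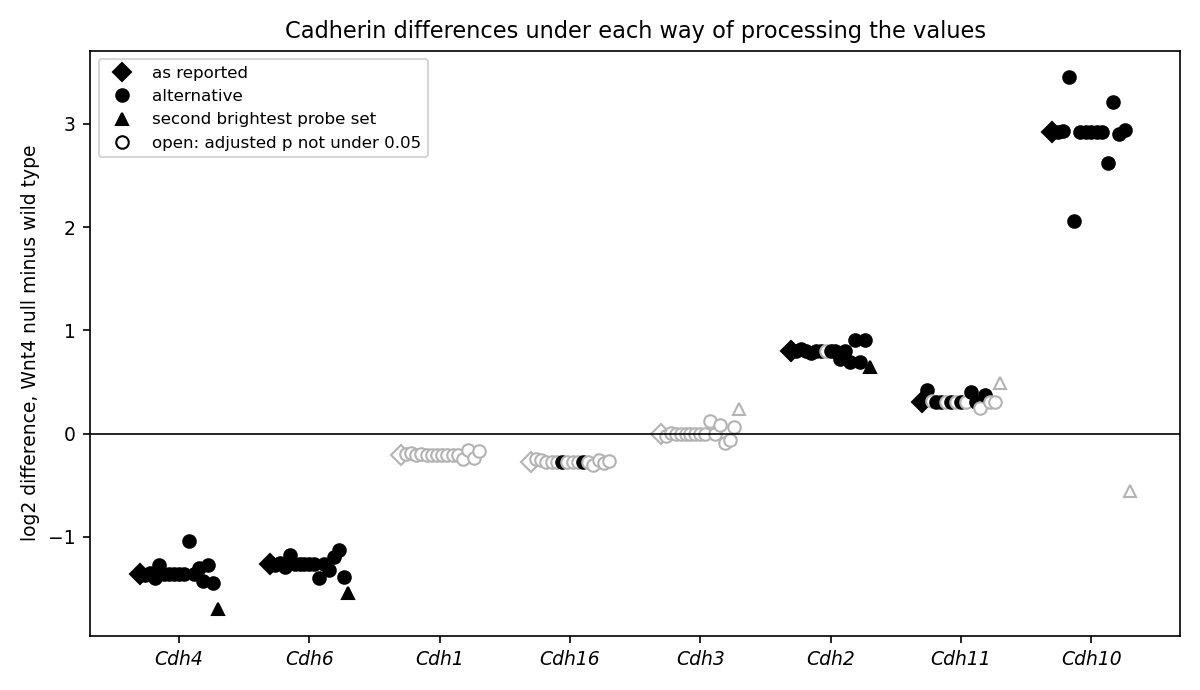
Log2 difference of each cadherin, Wnt4 null minus wild type (vertical axis), as reported (diamonds), under each alternative (circles) and at the second brightest probe set of the gene (triangles); filled symbols passed the threshold. Cdh4 and Cdh6 stay filled throughout, Cdh11 changes between filled and open, and the second Cdh10 probe set lies at -0.56.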

How the data were processed

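Per the labels' protocols, total RNA from whole kidneys was isolated on columns, put through 1 round of amplification and labelled with biotin. The authors deposited linear signal intensities, with 1 value for a probe set on each array. GCOS is the only tool in the submitters' processing notes, and how probes were summarised and scaled is not given in the sources used here. The mean after trimming 2% at each end was 500.0 on all 4 arrays, and the medians were 137.5 and 159.3 on mutant and 150.9 and 148.9 on wild-type arrays.

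Values were used as log2(signal + 16). The 64 control probe sets and the 40% of probe sets lowest by mean were left out. A 2-group linear model was fitted with limma 3.58.1 in R 4.3.3 (lmFit, eBayes with an intensity trend, two-sided). It was tested on simulated data of 27022 probe sets, with levels and spreads taken from this comparison and normal noise. There it recovered 66 of 100 changes of 2-fold and 99 of 100 of 4-fold, with 20 false calls. The simulation held no other changes, whereas 2920 probe sets passed here, so its recovery need not carry over to these data. An exact test of 2 arrays against 2 cannot go below a two-sided p of 0.33, and the number of arrays limits the precision. Probe sets were named through the platform annotation with symbols updated from RefSeq (GRCm38.p6): 34958 had 1 gene, 932 several and 9211 were not listed. Each gene is shown by the tested probe set of highest mean.

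The cadherins and the 17 gene lists were chosen with earlier results of these data known. Named are the 8 cadherins, Wnt4, up to 4 genes with the smallest p from each list, all other cadherins past the threshold, and the 2 nearest profiles per cadherin that passed. Further genes, such as Celsr1, Celsr2, Clstn2, Cdh5, Cdhr2, Cdh19, Ctnnb1, Ctnna1, Ctnnd1, Dchs1, Snai1, Snai2, Zeb2, Adam10, Krt8 and Mia, were named after their values were seen. Alternatives were other normalizations, added constants, filters, variance priors, probe set choices, a replicate block and leaving out each array.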

Additional observations from a re-analysis of the deposited data

How the results depend on the processing

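Under the 15 alternatives, the log2 difference of Cdh4 stayed between -1.45 and -1.04, that of Cdh6 between -1.40 and -1.13 and that of Cdh1 between -0.25 and -0.16, each on its own side of the threshold. Cdh10 had a value in 13 of them, 2.06 to 3.45, and none with the 60% filter or the gene mean, where it was not tested. At the second brightest tested probe set, a choice made after seeing the data, Cdh10 had a log2 difference of -0.56, Cdh3 one of 0.24 and Cdh11 one of 0.49 (adjusted p = 0.0954). Cdh2 kept its 0.80 without the intensity trend but did not pass there. Cdh11 did not pass with arrays centred on their medians (0.32), without a filter (0.31, adjusted p = 0.105), without the trend (0.31, adjusted p = 0.241) or with the replicate block (0.31, adjusted p = 0.0968). Cdh16 passed at -0.28 with the 60% filter and with the gene mean. Cdh3, near 0, changed sign with median centring (0.01), with the gene mean (0.12), without wild-type replicate 1 (0.08) and without mutant replicate 2 (0.06). Under the gene mean Klf5 (-0.00) and Ptprk (-0.01) turned, and Cdh10 at 1460538_at turned without wild-type replicate 1 (range over left-out arrays -0.12 to 0.75). Without the trend 433 probe sets were lower and 425 higher, against 1457 and 1463, and 1 cadherin was higher. Leaving out 1 array gave 815 to 1877 lower and 664 to 2050 higher probe sets, 2 lower and 2 to 3 higher cadherins, and log2 differences of 0.69 to 0.91 for Cdh2, -0.09 to 0.08 for Cdh3, 2.62 to 3.21 for Cdh10, 0.25 to 0.37 for Cdh11, -0.30 to -0.26 for Cdh16 and -2.68 to -2.13 for Wnt4. The counts were lowest without a mutant array, when only wild-type arrays inform the spread and the lone mutant array is assumed to vary like them. The replicate numbers do not pair the arrays: the deviations of same-numbered arrays correlated at -0.0171, and the replicate block gave 1409 lower and 1504 higher probe sets, with 2 lower and 2 higher cadherins. The cause of these changes was not tested.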
